A study of Mus musculus with 12 samples.

Results

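A set of 10 genes of hepatic glucose production and of the response to insulin was followed in brain and liver of mice with and without Vaultrc5, the gene of a vault RNA. They were chosen by symbol: the rows of the count table for Pcx, Pck1, Fbp1, G6pc, Tat, Sds, Foxo1, Ppargc1a, Irs2 and Igfbp1, which are 10 of 55450 genes. Total RNA was sequenced from 4 groups with 3 libraries each: brain of wild-type mice (Vaultrc5+/+), brain of knockout mice (Vaultrc5-/-), liver of wild-type mice and liver of knockout mice. All animals were males of 7 to 9 weeks, and no treatment is named. The titles of the control libraries carry the word flx, and these libraries are called wild type here after their genotype label. How the knockout allele was made, whether it was lost in every cell, whether a library pooled animals, which brains and livers came from the same animal, and the feeding state and hour at collection were not given in the sources used here. Nothing says that the 3 libraries of a group came from separate mice, so p-values measure the spread between these libraries, part of which may be technical.

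During a fast the liver makes new glucose from lactate, glycerol and amino acids. Pyruvate carboxylase (Pcx), phosphoenolpyruvate carboxykinase (Pck1), fructose-1,6-bisphosphatase (Fbp1) and glucose-6-phosphatase (G6pc) carry the steps that glycolysis cannot run backwards, while tyrosine aminotransferase (Tat) and serine dehydratase (Sds) feed amino acid carbon into the route. Glucagon, through cAMP, and glucocorticoids raise transcription of several of these genes, and insulin lowers it, in part by driving the transcription factor Foxo1 out of the nucleus. Ppargc1a encodes a coactivator of that program, Irs2 an adaptor of the insulin receptor, and Igfbp1 a secreted binding protein for insulin-like growth factors that the liver makes when insulin is low.

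Brain libraries held 14844937 to 18567362 counts and liver libraries 23247425 to 27155478. Levels are in CPM, the count scaled within a tissue by the library's total over the genes tested, times a trimmed-mean (TMM) factor. That factor ran from 0.939 (liver knockout 2) to 1.036 (liver wild type 3). The floor used here, 3 counts in a library, lay at 0.165 to 0.198 CPM for brain and 0.110 to 0.128 CPM for liver, and it covers counting error only, because no molecular identifiers tell copies of a molecule apart. Vaultrc5 had 33, 39 and 48 counts in wild-type liver, 4, 1 and 4 in wild-type brain and 0 in all 6 knockout libraries. The liver libraries held hepatocyte markers at a summed level of 44583 to 72524 CPM, and all 5 neuron markers were present in brain at a summed 4066 to 5528 CPM. The library brain knockout 3 stood apart: 5 pancreatic acinar markers summed to 6013 CPM there and to 0.773 to 1.66 CPM in the other 5 brain libraries. The members' fitted log2 differences that use knockout brain are given with and without it; shares over all genes, counts and intervals include it.

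Pck1, G6pc, Tat, Irs2 and Igfbp1 shared 1 ordering of the liver libraries, lowest in replicate 1 and highest in replicate 3 in both genotypes, and their promoters are shown for that reason. Each sequence is the 250 bases before the gene's RefSeq start site (GRCm38.p6), read 5′ to 3′ on the gene's strand. The windows are chr2:173152823-173153072 (Pck1, plus strand), chr11:101367466-101367715 (G6pc, plus), chr8:109990186-109990435 (Tat, plus), chr8:11008930-11009179 (Irs2, minus) and chr11:7197537-7197786 (Igfbp1, plus). Capitals mark any match, on either strand, to the letters searched.
Pck1: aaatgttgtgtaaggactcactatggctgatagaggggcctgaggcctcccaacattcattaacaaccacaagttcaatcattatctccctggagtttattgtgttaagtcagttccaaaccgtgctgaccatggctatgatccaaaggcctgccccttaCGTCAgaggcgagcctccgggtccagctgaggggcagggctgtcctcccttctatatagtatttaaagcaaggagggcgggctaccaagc
G6pc: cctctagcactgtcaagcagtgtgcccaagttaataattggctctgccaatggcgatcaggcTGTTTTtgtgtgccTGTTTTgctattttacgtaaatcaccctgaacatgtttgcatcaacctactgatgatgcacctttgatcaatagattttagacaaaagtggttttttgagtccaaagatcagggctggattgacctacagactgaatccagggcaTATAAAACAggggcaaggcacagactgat
Tat: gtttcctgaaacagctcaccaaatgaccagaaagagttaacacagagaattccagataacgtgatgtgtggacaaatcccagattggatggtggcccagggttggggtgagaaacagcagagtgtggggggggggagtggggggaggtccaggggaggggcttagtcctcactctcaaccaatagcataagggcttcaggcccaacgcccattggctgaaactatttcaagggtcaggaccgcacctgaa
Irs2: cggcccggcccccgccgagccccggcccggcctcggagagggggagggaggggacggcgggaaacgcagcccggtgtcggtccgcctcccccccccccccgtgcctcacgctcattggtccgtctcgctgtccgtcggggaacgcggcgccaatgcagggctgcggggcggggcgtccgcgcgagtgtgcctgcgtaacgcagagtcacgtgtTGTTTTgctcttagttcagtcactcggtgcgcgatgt
Igfbp1: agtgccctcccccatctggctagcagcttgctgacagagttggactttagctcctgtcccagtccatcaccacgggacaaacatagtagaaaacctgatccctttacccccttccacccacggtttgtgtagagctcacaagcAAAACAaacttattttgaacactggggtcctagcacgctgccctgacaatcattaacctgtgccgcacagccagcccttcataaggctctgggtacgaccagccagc

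The letters were searched on both strands, in windows from 250 bases before to 50 after the start site, and each share below is of 32817 such windows over all genes in the RefSeq table. In Pck1, TGACG, the core that cAMP response element binding proteins recognise, lies on the minus strand at -90 from the start site. That core occurs in 20.8% of windows. G6pc holds TGTTTT, the core of the insulin response sequence bound by Foxo1, at -188 and -174 on the plus strand and at -26 on the minus strand, where it overlaps TATAAA at -29. In Irs2 the same core lies at -37 on the plus strand, and in Igfbp1 at -107 on the minus strand. TGTTTT occurs in 22.1% of windows and TATAAA in 13.6%. No member window held the full cAMP response element TGACGTCA (1.79% of windows), the forkhead letters TGTTTAC (3.65%) or the glucocorticoid receptor half-site TGTTCT (19.0%). Of the 10 genes, 9 matched the table and Sds did not, and outside the promoters shown the search found only TGACG in Ppargc1a, at -49 on the minus strand. These matches describe letters in a window and do not show binding.

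The genes were first placed by their level, in CPM per kilobase of annotated exon so that genes of different length could be compared within a tissue. In wild-type liver Pck1 stood highest at a mean of 455 CPM per kilobase, followed by Tat at 384, Fbp1 at 279 and G6pc at 208. Pck1, Tat and Fbp1 overlapped their neighbours in this order over the 3 libraries, and G6pc lay below Fbp1 in every library. Pcx followed at 86.4 CPM per kilobase, apart from both neighbours, then Sds at 40.7 and Igfbp1 at 40.1, which overlapped. The regulators were the lowest: Irs2 at 10.1 and Foxo1 at 6.85 CPM per kilobase overlapped, and Ppargc1a at 1.94 lay below both. In knockout liver Igfbp1 (48.2 CPM per kilobase) and Sds (47.6) traded places, with overlapping libraries, and the other 8 held the same rank. Wild-type brain had the order Irs2 (15.01 CPM per kilobase), Pcx (12.7), Ppargc1a (10.9) and Foxo1 (3.52), where the first 3 overlapped their neighbours, and the other 6 genes were near 0.

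**Figure D1:**
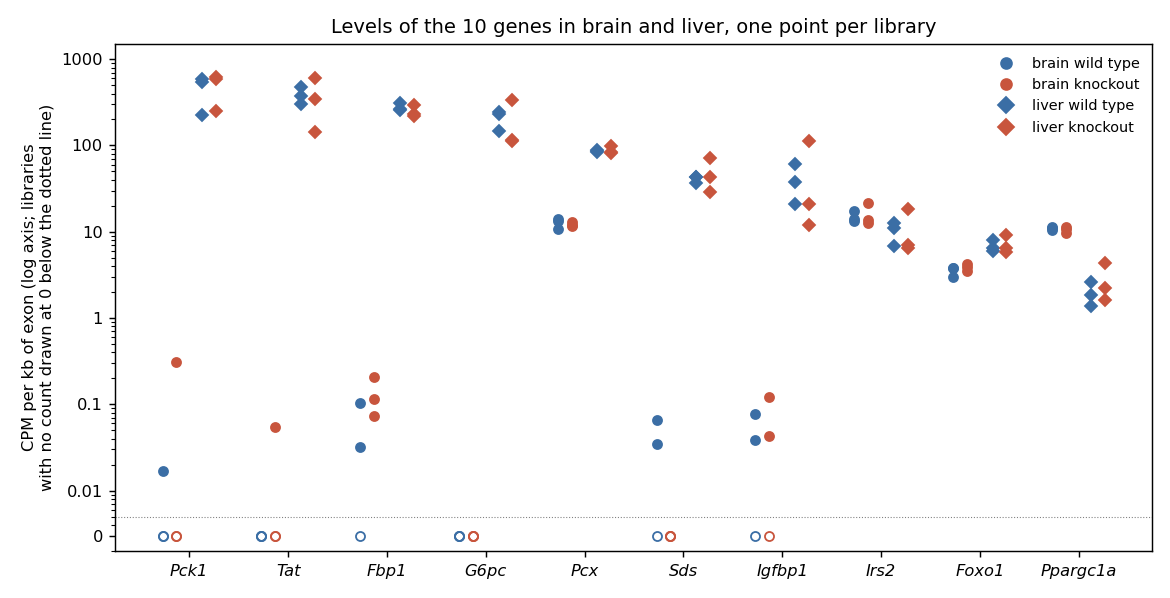
Level of each gene in CPM per kilobase of annotated exon (vertical axis, logarithmic, with libraries without a count drawn at 0 below the dotted line), 1 point per library, circles for brain and diamonds for liver, blue for wild type and red for knockout. In liver, 6 genes reach 12.1 to 615 CPM per kilobase against at most 0.306 in brain. On this scale Ppargc1a is the only gene whose brain points all lie above its liver points. Brain and liver were scaled separately, unlike in the tested log2 differences.

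The folds in this paragraph use CPM scaled within each tissue, which is not the scaling of the tested log2 differences. G6pc, the last enzyme of glucose production, had no count in any brain library. Its mean liver CPM was at least 2898-fold higher in wild type and at least 2431-fold higher in knockout, taking brain at the floor of 3 counts per library. Tat had 0 counts in wild-type brain and 2, 0 and 0 in knockout brain, which puts wild-type liver at least 5334-fold higher by the same floor. Sds had 0, 2 and 1 counts in wild-type brain and none in knockout brain. Igfbp1 had 2, 0 and 1 counts in wild-type brain and 1, 0 and 3 in knockout brain. Tat, Sds and Igfbp1 were thus at or under the floor in every brain library, so their genotypes cannot be compared there. Fbp1 had 0, 1 and 3 counts in wild-type brain and 3, 6 and 2 in knockout brain. The ratio of liver to brain counts, scaled as for CPM, was 6149 in wild type (95% exact counting interval 2401 to 22569) and 1862 in knockout (1040 to 3730). Pck1 had 0, 0 and 1 counts in wild-type brain and 0, 0 and 17 in knockout brain. All 17 lay in brain knockout 3, the library with the pancreatic acinar markers; the part of that signal in the Pck1 count was not tested. Alb, the most abundant hepatocyte marker, had 2 counts in that library and 0 to 5 in the other brain libraries.

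In the wild-type comparison of liver with brain, 9 of the 10 genes passed edgeR's quasi-likelihood test at a Benjamini-Hochberg adjusted p under 0.05, where 78.6% of the 18850 genes tested did. Higher in liver were 8 of them (34.7% of all genes) and lower was 1 (43.9%). Within knockout, 9 of 10 passed against 78.7% of 18785 genes, again 8 higher (35.2%) and 1 lower (43.5%). Of the 9, 6 entered the test only through their liver counts and had to differ, so their calls carry no information. Among the 4 genes with counts in both tissues, Pcx was higher in liver by 3.62 ± 0.14 on the log2 scale (SE) in wild type and by 3.70 ± 0.13 in knockout. Foxo1 was higher in liver by 1.82 ± 0.16 in wild type (adjusted p = 1.84e-05) and by 1.74 ± 0.18 in knockout (adjusted p = 6.47e-05). Ppargc1a was lower in liver, with a log2 difference of -1.64 ± 0.21 in wild type (adjusted p = 0.0002) and -1.09 ± 0.33 in knockout (adjusted p = 0.0165). The knockout difference lost its call without brain knockout 2 (-1.005, adjusted p = 0.0565) or without liver knockout 2 (-0.93, adjusted p = 0.0671). Irs2 did not pass in either genotype, at 0.29 ± 0.22 in wild type (adjusted p = 0.257) and 0.28 ± 0.42 in knockout (adjusted p = 0.564), but passed in wild type without liver wild type 1 (0.52, adjusted p = 0.0176) and turned sign in knockout without liver knockout 3 (-0.34). Without brain knockout 3 the knockout differences were 3.70 for Pcx, 1.68 for Foxo1, -1.13 for Ppargc1a (adjusted p = 0.0381) and 0.58 for Irs2, with the same 3 genes called.

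These sizes depend on how brain and liver are scaled to each other. With library totals in place of trimmed means, the median difference of all genes moved from -0.21 to -1.05 in wild type and from -0.21 to -1.08 in knockout, and Irs2 turned sign to -0.55 and -0.58. Under that scaling Pcx moved to 2.78 in wild type and 2.82 in knockout, Foxo1 to 0.98 and 0.87, and Ppargc1a to -2.47 and -1.95, each still called and in the same direction. In CPM scaled within each tissue, mean wild-type Pcx was 6.79-fold higher in liver, and mean wild-type Irs2 was 1.48-fold higher in brain.

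The liver values of the gluconeogenic enzymes are given by library, in the order of replicates 1, 2 and 3. Pcx, which turns pyruvate into oxaloacetate in the mitochondrion, was at 422, 399 and 411 CPM in wild type (mean 410 ± 11.4, SD, n = 3) and at 390, 398 and 463 CPM in knockout (417 ± 39.6). It was the steadiest of the 10 genes, its highest library 1.18-fold above its lowest, and the genotypes overlapped. Pck1, which makes phosphoenolpyruvate from oxaloacetate in the cytosol, was at 772, 1874 and 2030 CPM in wild type (1559 ± 685) and at 867, 1996 and 2110 CPM in knockout (1658 ± 687). The 2 libraries numbered 1 were low and the other 4 were high, and knockout exceeded wild type of the same number by 0.17, 0.091 and 0.056 on the log2 scale. Fbp1, which removes a phosphate from fructose 1,6-bisphosphate, was at 535, 440 and 449 CPM in wild type (474 ± 52.4) and at 397, 371 and 508 CPM in knockout (425 ± 72.5). Its 2 lowest libraries were knockout 1 and 2, but knockout 3 lay inside the wild-type range. G6pc, which frees glucose from glucose 6-phosphate, was at 358, 554 and 592 CPM in wild type (501 ± 126) and at 273, 282 and 807 CPM in knockout (454 ± 306). Knockout held both the 2 lowest libraries and the highest.

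The amino acid enzymes spread more in knockout than in wild type. Tat, the first step of tyrosine breakdown, was at 726, 901 and 1141 CPM in wild-type liver (923 ± 208) and at 341, 832 and 1458 CPM in knockout liver (877 ± 560). Knockout 1 and knockout 3 lay outside the wild-type range on opposite sides. Sds, which turns serine into pyruvate, was at 72.4, 72.6 and 61.8 CPM in wild type (68.9 ± 6.13) and at 49.4, 72.6 and 120 CPM in knockout (80.6 ± 35.9). The 3 wild-type libraries lay within 1.17-fold of each other, and the knockout libraries spanned 2.42-fold around them.

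Among the regulators, Foxo1 was at 51.9, 56.9 and 69.4 CPM in wild-type liver (59.4 ± 9.01) and at 55.7, 50.8 and 78.4 CPM in knockout liver (61.6 ± 14.7). Both libraries numbered 3 were its highest. Ppargc1a was at 12.2, 9.10 and 17.0 CPM in wild type (12.8 ± 4.01) and at 10.7, 14.8 and 29.0 CPM in knockout (18.2 ± 9.58). Knockout 3 alone exceeded every wild-type library. Irs2 was at 43.4, 69.0 and 79.7 CPM in wild type (64.0 ± 18.6) and at 41.0, 44.7 and 117 CPM in knockout (67.7 ± 43.0). As for G6pc, its knockout libraries held the highest value and the lowest. Igfbp1, the secreted protein of the set, was at 31.7, 58.3 and 93.4 CPM in wild type (61.1 ± 31.0) and at 18.5, 31.8 and 170 CPM in knockout (73.5 ± 84.1). Its 6 libraries spanned 9.22-fold, the widest range of the 10 genes. Of the 13321 genes tested in liver with a mean of at least 1 CPM, 98.9% had a narrower one.

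**Figure D2:**
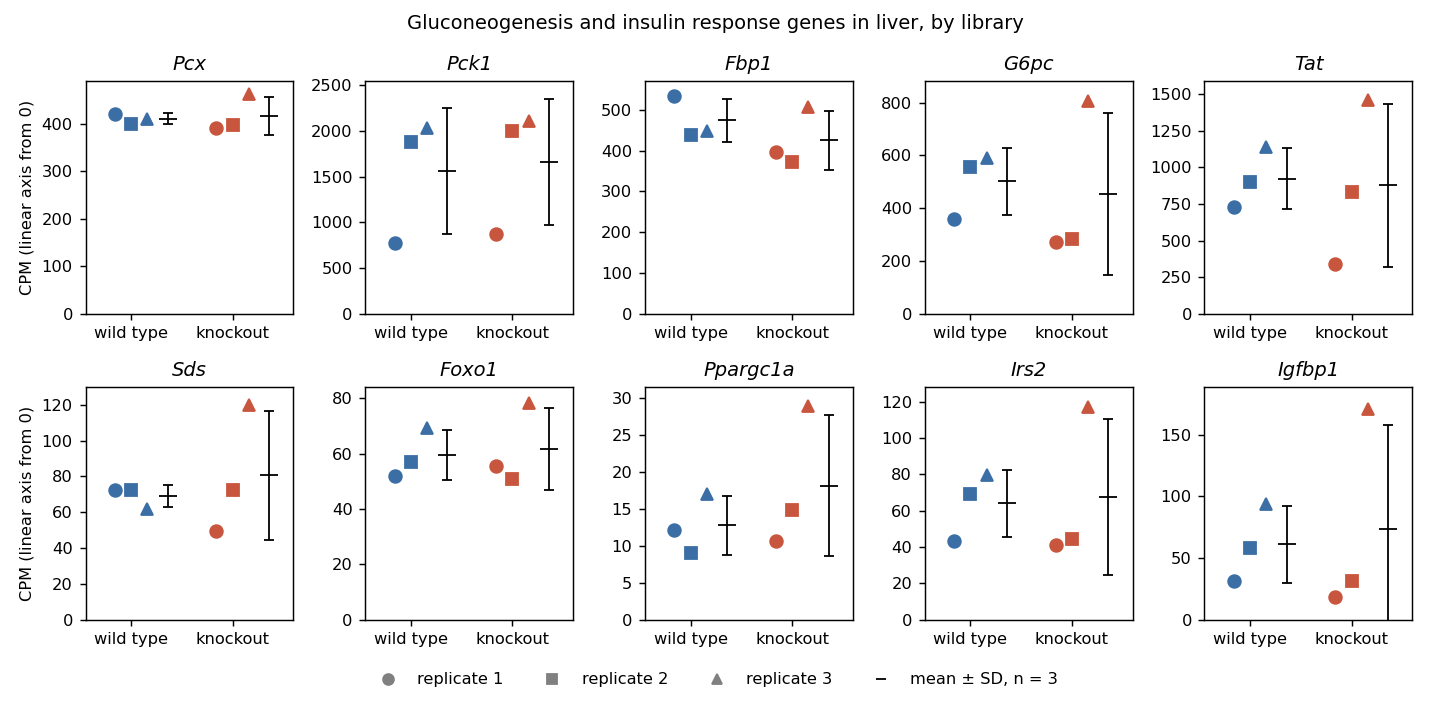
Liver level of each gene in CPM (vertical axis, linear from 0, own scale per panel), 1 point per library with the symbol giving the replicate number, wild type in blue and knockout in red, and black bars for mean ± SD of 3 libraries (the lower bar of Igfbp1 in knockout runs below 0 and is cut by the axis). The genotypes overlap for all 10 genes, and the triangle of replicate 3 is the highest knockout point in every panel.

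The main comparison asked whether loss of Vaultrc5 changed these genes in liver. None of the 10 genes passed the test, and none had an unadjusted p under 0.05; DESeq2's Wald test also called 0. For none of them were the 3 knockout libraries all above or all below the wild-type ones. Across the 15329 genes tested in liver, edgeR called 0 (0%) and DESeq2 called 10, none of them a member. An unadjusted p under 0.05 was reached by 3.5% of genes, and 9.84% had libraries that did not overlap between genotypes. The median log2 change of the members was 0.066 against 0.0050 over all genes tested, and the median absolute change was 0.12 for both.

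How tightly the fit without a block bound a change differed widely between the genes. The log2 change of Pcx was 0.023 ± 0.11 (SE; 95% interval -0.23 to 0.28), that of Fbp1 -0.16 ± 0.15 (-0.51 to 0.19) and that of Foxo1 0.053 ± 0.19 (-0.38 to 0.49). In this fit, without a block, the interval of these 3 genes holds no change of 2-fold or more. Pck1 lay at 0.089 ± 0.48 (-1.08 to 1.25), G6pc at -0.14 ± 0.49 (-1.35 to 1.06), Tat at -0.073 ± 0.51 (-1.34 to 1.19) and Irs2 at 0.079 ± 0.49 (-1.16 to 1.32). Sds lay at 0.23 ± 0.32 (-0.55 to 1.00) and Ppargc1a at 0.51 ± 0.43 (-0.55 to 1.56, unadjusted p = 0.281). Igfbp1 was the least bounded, at 0.27 ± 0.97 (-2.26 to 2.79). Every adjusted p by edgeR without the block was 0.992 or higher. With the replicate number as a block, described below, the SE was 0.13 for Pck1, 0.089 for Foxo1, 0.26 for Irs2 and 0.51 for Igfbp1. It was 0.11 for Pcx and 0.36 for Sds. Intervals are given for the fit without the block only.

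Leaving out liver knockout 3 turned the sign of Pcx (-0.059), Pck1 (-0.12), Sds (-0.18), Foxo1 (-0.16), Ppargc1a (-0.0032), Irs2 (-0.58) and Igfbp1 (-1.29), again with 0 calls. It also moved G6pc to -0.85 ± 0.22 (unadjusted p = 0.00692, adjusted p = 0.676 by edgeR), the only one of the 10 with an unadjusted p under 0.05 there, where 1136 of 15722 genes had one, Tat to -0.65 ± 0.42 and Fbp1 to -0.31 ± 0.13. Leaving out liver wild type 1 turned Pck1 to -0.24, Foxo1 to -0.035, Irs2 to -0.14 and Igfbp1 to -0.046. G6pc turned to 0.12 without knockout 1 and to 0.11 without knockout 2, Tat turned to 0.31 without knockout 1 and to 0.11 without wild type 3, Pck1 turned to -0.069 without knockout 2, and Pcx turned to -0.00023 without wild type 2. The direction of Fbp1 alone held whichever library was left out. Since libraries of the same replicate number deviated together in liver, the fit was also made with the replicate number as a block. It called 2 of 15329 genes (0.013%), neither among the 10. With it Pck1 had 0.10 ± 0.13, G6pc -0.31 ± 0.29 and Tat -0.28 ± 0.30, Ppargc1a had 0.44 ± 0.20 (unadjusted p = 0.0778, adjusted p = 0.803 by edgeR), and Irs2 and Igfbp1 turned sign to -0.045 and -0.25.

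**Figure D3:**
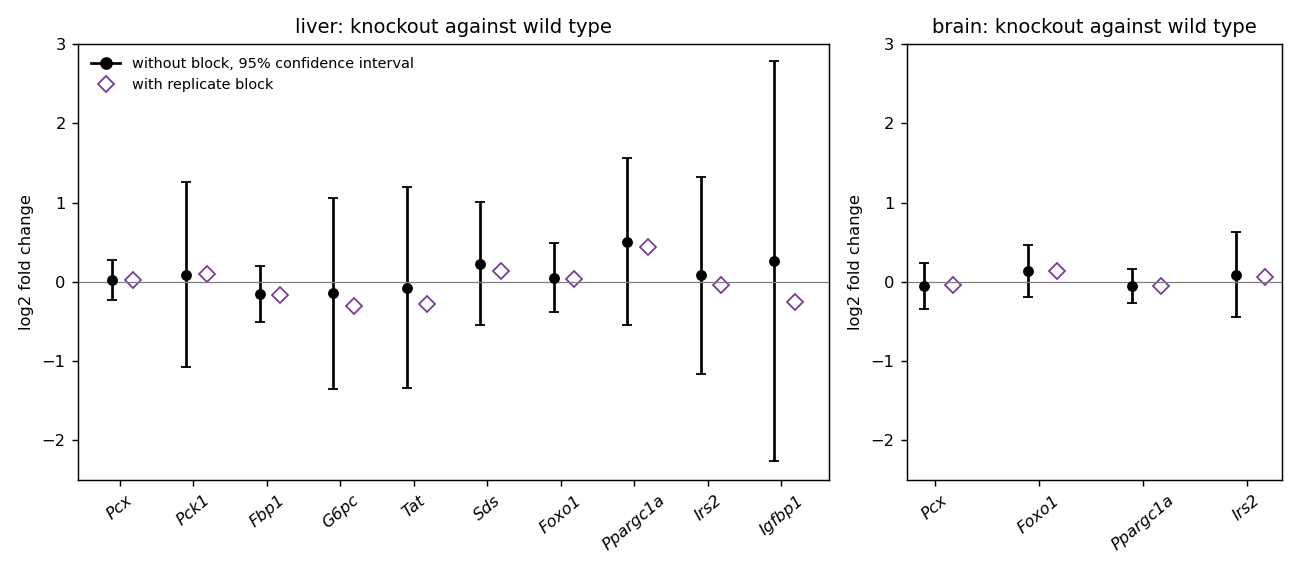
Log2 fold change of knockout against wild type (vertical axis) for the 10 genes in liver and the 4 genes tested in brain; black points with 95% confidence intervals are from the fit without a block, open diamonds are the estimates with the replicate number as a block. Every interval crosses 0, and the widest, that of Igfbp1, runs from -2.26 to 2.79.

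In brain, 4 of the 10 genes had enough counts to be tested. Pcx, expressed in brain mainly by astrocytes, was at 64.1, 50.6 and 66.5 CPM in wild type and at 60.9, 56.0 and 57.6 CPM in knockout. Summed over 5 astrocyte markers, the same libraries held 1092, 706 and 1028 CPM in wild type and 927, 716 and 814 CPM in knockout, and replicate 2 was the lowest in both genotypes for the markers and for Pcx. The 5 oligodendrocyte markers, all below 0 in knockout (median log2 change -0.57, none called), summed to 6390 CPM in brain wild type 3 and 1842 to 3325 CPM in the other brain libraries, and the 5 choroid plexus markers to 5.57 to 80.5 CPM. Whether the makeup of the tissue takes part in these values was not tested, and in bulk tissue fewer cells of a type cannot be told from less RNA per cell. Foxo1 was at 33.2, 25.6 and 32.7 CPM in wild type and at 33.5, 36.9 and 30.1 CPM in knockout. Ppargc1a, which drives mitochondrial genes, was nearly level at 74.4, 69.5 and 72.5 CPM in wild type and 71.0, 74.5 and 63.3 CPM in knockout. Irs2 was at 85.2, 89.8 and 110 CPM in wild type and at 78.9, 86.7 and 137 CPM in knockout, with its highest value in brain knockout 3. The genotypes overlapped for all 4 genes, and 4.23% of the 18075 genes tested in brain did not overlap.

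None of the 4 passed edgeR's test in brain or had an unadjusted p under 0.05, and DESeq2 called 0 of them; of all genes 0% were called, and an unadjusted p under 0.05 was reached by 0.675%. The log2 change was -0.055 ± 0.12 for Pcx (95% interval -0.34 to 0.23), 0.14 ± 0.14 for Foxo1 (-0.19 to 0.46), -0.051 ± 0.091 for Ppargc1a (-0.27 to 0.17) and 0.089 ± 0.22 for Irs2 (-0.45 to 0.62). These intervals exclude a 2-fold change in either direction. Without brain knockout 3, Pcx was at -0.043, Foxo1 at 0.21, Ppargc1a at 0.016 and Irs2 at -0.19, so the last pair turned sign. Without brain wild type 3, Pcx turned to 0.020, and without brain wild type 2, Foxo1 was at 0.031.

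A single fit of all 12 libraries asked if the effect of the knockout was unequal in liver and brain. By edgeR 0 of the 10 genes were called, and 0% of the 20141 tested; 2.43% had an unadjusted p under 0.05. For the 4 genes with counts in both tissues, the liver effect minus the brain effect was 0.056 ± 0.16 for Pcx, -0.11 ± 0.25 for Foxo1, 0.53 ± 0.43 for Ppargc1a (95% interval -0.41 to 1.47) and -0.037 ± 0.53 for Irs2. Without liver knockout 3 the difference of Ppargc1a was 0.035, and without liver wild type 3 it was 0.80. Without brain knockout 3 the values were 0.077 for Pcx, -0.15 for Foxo1, 0.50 for Ppargc1a and 0.28 for Irs2, which turned sign. The other 6 genes were too scarce in brain for this difference to be read, although the fit gave 1 of them, Fbp1, an unadjusted p of 0.0437 (adjusted p = 1.00 by edgeR) from 4 and 11 brain counts.

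Liver libraries of the same replicate number resembled each other in many of these genes. Replicate 3 was the highest library in both genotypes for 7 of the 10 (Pck1, G6pc, Tat, Foxo1, Ppargc1a, Irs2 and Igfbp1), against 17.7% of the 13321 genes with a mean of at least 1 CPM. Replicate 1 was the lowest in both for 5 (Pck1, G6pc, Tat, Irs2 and Igfbp1), against 11.9%, and the same 5 met both conditions, against 4.73%. Of the variation of Pck1 on the log2 scale among the 6 libraries, 99.1% of the sum of squares lay between replicate numbers and 0.731% between genotypes. The share between replicate numbers was 89.1% for Foxo1, 84.6% for Igfbp1, 80.7% for Irs2 and 74.1% for Tat. It was lowest for Pcx at 47.7%, Fbp1 at 31.9% and Sds at 31.3%. The median was 71.2% over the members and 49.2% over all genes, and the median share between genotypes was 2.29% and 11.9%. The shares compare 3 replicate numbers with 2 genotypes, so the former have more room to vary, and per degree of freedom the genotype share of Fbp1 (20.3%) was the larger one. They describe 6 libraries, and the genes are not independent of each other.

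The 5 genes that shared the ordering, picked for it in these same libraries, differed in spread between the genotypes. From the lowest to the highest library, Igfbp1 spanned 2.95-fold in wild type and 9.22-fold in knockout, Tat 1.57-fold and 4.28-fold, G6pc 1.66-fold and 2.95-fold, and Irs2 1.83-fold and 2.86-fold. Pck1 was the exception among the 5, at 2.63-fold in wild type and 2.43-fold in knockout. For G6pc, Irs2 and Igfbp1 the knockout span came mainly from liver knockout 3, at 807, 117 and 170 CPM. Liver knockout 1 and 2 lay at 273 and 282 CPM for G6pc, 41.0 and 44.7 for Irs2, and 18.5 and 31.8 for Igfbp1. How many of all genes spread more in knockout was not counted. With 3 libraries a group this difference in spread was not tested.

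Genes outside the set that read the hour of day and the feeding state were set beside this ordering. Per1, Arntl and Fasn were picked after their values were seen, so their order cannot count as a test. Per1, a clock gene that also responds to glucocorticoids, was at 11.1, 26.4 and 64.1 CPM in wild-type liver and at 9.46, 13.9 and 71.7 CPM in knockout liver, the order of the 5 genes above. Arntl, the clock activator whose level runs opposite to the Per genes, was at 8.65, 9.10 and 2.45 CPM in wild type and at 14.2, 11.7 and 2.89 CPM in knockout, lowest in both libraries numbered 3. Over all 13321 genes with a mean of at least 1 CPM, 17.7% were highest in replicate 3 of both genotypes. The shares over all genes for lowest in replicate 3 and highest in replicate 1 were not computed. Of 12 clock genes, 7 were highest and 4 were lowest in replicate 3 of both genotypes. The median share of their sum of squares between replicate numbers was 83.7%. Of 9 fasting-induced genes with at least 1 CPM, 7 were highest in replicate 3 of both genotypes, as were 7 of 20 other gluconeogenic and pyruvate-cycle enzymes, 7 of 23 insulin signalling components and 7 of 22 glucagon, cAMP and glucocorticoid regulators. Of 16 other amino acid catabolic enzymes 0 were, while 5 were highest in replicate 1 and 5 lowest in replicate 3 of both. Of 12 genes induced by insulin and feeding, 4 were, and Fasn, the fatty acid synthase, was at 1278, 554 and 855 CPM in wild type and at 496, 449 and 1939 CPM in knockout, the highest of all in liver knockout 3. The part of collection time or feeding in the values of the 10 genes was not tested.

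**Figure D4:**
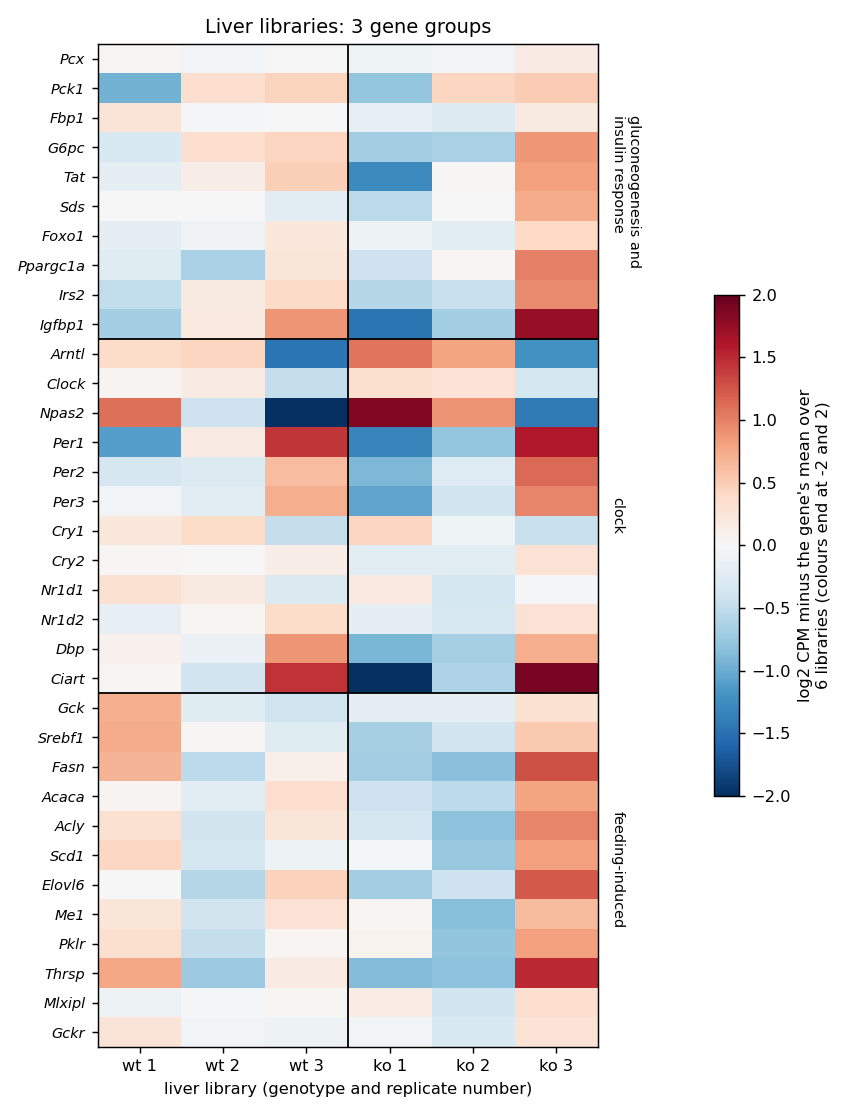
Colour shows the log2 CPM of a gene in a liver library minus its mean over the 6 liver libraries (red above, blue below, colours ending at -2 and 2) for the 10 genes, 12 clock genes and 12 genes induced by insulin and feeding; columns are wild type (wt) and knockout (ko) replicates 1 to 3. Columns wt 3 and ko 3 are red for most of the 10 genes and for the Per genes and blue for Arntl and Npas2.

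The other genes of the pathway were read from lists that did not include the 10. None passed edgeR's test in liver or brain in any list, with or without the block. Of 20 further gluconeogenic and pyruvate-cycle enzymes tested in liver, 8 lay above 0 and 12 below, with a median log2 change of -0.024 and 1 at an unadjusted p under 0.05. That was Mpc2, a subunit of the mitochondrial pyruvate carrier, at 79.3, 72.2 and 86.7 CPM in wild type and 64.1, 53.6 and 71.2 CPM in knockout, a change of -0.34 ± 0.12 (unadjusted p = 0.0268). Of 16 amino acid catabolic enzymes, 14 lay below 0 (median -0.11), and 1 had an unadjusted p under 0.05. That was Agxt, alanine-glyoxylate aminotransferase, at 148, 139 and 130 CPM in wild type and 116, 98.3 and 127 CPM in knockout (-0.29 ± 0.11, unadjusted p = 0.0379).

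On the regulatory side, 23 insulin signalling components had a median of 0.013 with 12 above 0 and 11 below, and Insr, the insulin receptor itself, was at -0.026 ± 0.12. Of 22 regulators of the glucagon, cAMP and glucocorticoid side, 11 lay above 0 and 11 below, and 2 had an unadjusted p under 0.05. Cebpa, a liver transcription factor, was at 341, 318 and 309 CPM in wild type and 264, 266 and 244 CPM in knockout, (-0.32 ± 0.095, unadjusted p = 0.0103). Crem, a cAMP-responsive factor that includes repressor forms, was at 16.7, 15.3 and 14.2 CPM in wild type and 18.8, 17.7 and 23.0 CPM in knockout (0.37 ± 0.12, unadjusted p = 0.0189). For both the adjusted p by edgeR was 0.992. These genes are named because their p was the smallest of their list, and 3.5% of all genes tested in liver had an unadjusted p under 0.05. Fasting-induced genes had a median of -0.22 with 9 of 10 below 0, feeding-induced genes 0.093 with 9 of 13 above 0, other insulin-like growth factors and binding proteins -0.11 with 6 of 8 below 0, and clock genes -0.076 with 7 of 12 below 0. In brain the medians of these 8 lists ran from -0.12 to 0.086.

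Markers of other cells in liver gave the following levels in the libraries of these comparisons, and none was called. All 5 red blood cell markers had a log2 change above 0 in knockout, with a median of 0.95, and 2 of them had an unadjusted p under 0.05. The change was also above 0 for all 5 Kupffer cell markers (median 0.52), all 5 sinusoidal endothelial markers (median 0.12) and all 5 cholangiocyte markers (median 0.30), and for 2 of 5 stellate cell markers (median -0.14). An unadjusted p under 0.05 was reached by 1 Kupffer, 1 endothelial, 1 stellate and 0 cholangiocyte markers. The summed level of 5 Kupffer cell markers was 105, 140 and 123 CPM in wild type and 143, 269 and 117 CPM in knockout, and that of 5 cholangiocyte markers was 28.0, 39.6 and 36.9 CPM in wild type and 37.6, 116 and 25.4 CPM in knockout, both highest in knockout 2. Red blood cell markers summed to 79.8 to 113 CPM in wild type and 103 to 120 CPM in knockout, endothelial markers to 237 to 287 and 261 to 296 CPM, and stellate markers to 305 to 354 and 288 to 356 CPM. The 5 periportal hepatocyte markers that are not among the 10 genes summed to 4528, 3426 and 3163 CPM in wild type and 4152, 3183 and 3709 CPM in knockout. These sums were highest in replicate 1, but they are carried by the abundant markers: 2 of the 5 were highest in replicate 1 of both genotypes and 1 in replicate 3. The 7 pericentral markers summed to 7514, 6254 and 7569 CPM in wild type and 6487, 5477 and 7342 CPM in knockout, and 5 general hepatocyte markers to 67441, 55181 and 69420 CPM and 55118, 44583 and 72524 CPM. Both sums were highest in replicate 3 and lowest in replicate 2 of each genotype, but single markers differed. Of the 7 pericentral markers 1 was highest in replicate 3 of both genotypes and 3 in replicate 1, and of the 5 hepatocyte markers 2 and 1. In the 2 liver groups no marker of these 8 lists was at 0. The part of cell composition in the members' values was not tested.

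Likeness to the 3 most variable members was measured as the mean absolute difference of centred log2 CPM over the 6 liver libraries, among 13280 genes. Nearest to Igfbp1 were Gm29453 (0.21), Tsc22d3 (0.22) and Arl4d (0.23), where the median gene lay at 0.95. Tsc22d3, a glucocorticoid-induced leucine zipper protein, was at 40.9, 73.5 and 141 CPM in wild type and 28.5, 57.5 and 180 CPM in knockout. Of the other members Irs2 ranked nearest to Igfbp1, at place 40, then G6pc at 44 and Tat at 63. Nearest to Tat were Hspa2 (0.15), Stbd1 (0.15) and Gm38115 (0.16), with G6pc the nearest member at place 54 and Irs2 at 77. Nearest to Ppargc1a were Zfp970 (0.067), Gm42467 (0.13) and Gm15459 (0.14), and the nearest member was Sds at place 288. By this measure Ppargc1a was farther from Igfbp1, at place 579, than G6pc, Tat or Irs2.

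Where the genes lie bears on how their reads were assigned. Coordinates are from GENCODE mouse release M21 on GRCm38, the mm10 build named in the submitters' processing notes. Whether the counts cover annotated exons only was not given in the sources used here, and levels per kilobase of exon assume it. Pcx (ENSMUSG00000024892.17) spans chr19:4510472-4621752, Pck1 (ENSMUSG00000027513.11) chr2:173153048-173159273, Fbp1 (ENSMUSG00000069805.10) chr13:62864753-62888282 and G6pc (ENSMUSG00000078650.2) chr11:101367561-101377903. Tat (ENSMUSG00000001670.13) spans chr8:109990437-109999803 and Sds (ENSMUSG00000029597.14) chr5:120476526-120483932. Foxo1 (ENSMUSG00000044167.6) spans chr3:52268336-52353221, Ppargc1a (ENSMUSG00000029167.13) chr5:51454250-51567726, Irs2 (ENSMUSG00000038894.7) chr8:10984681-11008458 and Igfbp1 (ENSMUSG00000020429.7) chr11:7197782-7202546. Exons of Sds overlap those of Gm15690 and Plbd2 on the other strand, those of Foxo1 overlap Gm20402, and those of Irs2 overlap 9530052E02Rik. The libraries are stranded, but whether the counting used strand was not given in the sources used here, so reads of these 3 genes and their partners may not be fully told apart. The other 7 genes share no exon with another annotated gene.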

How the data were processed

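Total RNA of 12 libraries was measured, with groups and replicate numbers from the sample titles and genotype labels. Per the labels' protocols, TRIzol RNA was DNase-treated, depleted of ribosomal RNA and sequenced as stranded, single-end libraries. The values are expected counts, deposited without normalization, 1 per gene in each library. Per the submitters' processing notes, cutadapt and STAR and the mm10 build were used; the counting tool, its use of strand and versions were not given in the sources used here. Of the values in a library, 5.06% to 5.71% were not whole, so reads shared between genes may have been split.

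Counts were rounded. Genes passing filterByExpr (minimum count 10, minimum total 15) were scaled by TMM and tested with edgeR 4.0.16 (R 4.3.3, quasi-likelihood, robust; Benjamini-Hochberg over all genes tested, threshold 0.05): knockout against wild type within each tissue, liver against brain within each genotype, and the interaction. SE is the log2 fold change over the root of F, and 95% intervals use the moderated degrees of freedom. Alternatives were DESeq2 1.42.0 (size factors; Wald test), library totals, no filter, no robust step, all 12 libraries in 1 fit, the replicate block and each library left out. Within-group pairs differed by 27.2 to 228 times the chi-square degrees of freedom, so none was merged. Same-numbered liver libraries deviated together (correlations over 13321 genes 0.27, 0.28 and 0.35), which pairs them from the data; in brain they were 0.64, 0.65 and -0.01, and the numbers were not taken as pairs.

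Sums of squares and likeness used log2 CPM (pseudocount 0.1 CPM for the former). Genes outside the set were named by rule: per list, the 2 smallest p and the 2 highest levels in liver, and per variable member the 3 most alike; Per1, Arntl and Fasn were picked after their values were seen. Not every gene that the rule picks is reported here. The 10 genes, the 22 lists and the tests were chosen with earlier results of these data known.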

Additional observations from a re-analysis of the deposited data

How the results depend on the processing

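Under every alternative tried, 0 of the 10 genes were called for the knockout in liver, 0 in brain and 0 in the difference between tissues, with 4 of them tested in brain, 9 without the low-count filter and 10 in the fit of all 12 libraries. Over all genes, the liver count of 0 became 4 without the low-count filter, 10 with DESeq2's Wald test and 2 with the replicate block, and 0 to 1 when 1 library was left out; the count for the difference between tissues became 1 with DESeq2 and 2 with the block. Uncalled signs turned for Pcx in liver with library totals (-0.017), for Irs2 and Igfbp1 in liver with the replicate block (-0.045 and -0.25), and for Irs2 between tissues with library totals (-0.55 in wild type, -0.58 in knockout). With 1 library left out, the liver change ranged from -0.059 to 0.067 for Pcx, -0.24 to 0.40 for Pck1, -0.31 to -0.064 for Fbp1, -0.85 to 0.12 for G6pc, -0.65 to 0.31 for Tat, -0.18 to 0.48 for Sds, -0.16 to 0.18 for Foxo1, -0.0032 to 0.78 for Ppargc1a, -0.58 to 0.34 for Irs2 and -1.29 to 0.72 for Igfbp1. In brain it ranged from -0.16 to 0.020 for Pcx, 0.031 to 0.21 for Foxo1, -0.091 to 0.016 for Ppargc1a and -0.19 to 0.24 for Irs2. The difference between tissues ranged from -0.016 to 0.17 for Pcx, -0.31 to 0.020 for Foxo1, 0.035 to 0.80 for Ppargc1a and -0.68 to 0.28 for Irs2, and knockout liver against brain from -0.34 to 0.58 for Irs2. Between tissues 9 to 10 of 10 genes were called in wild type and 8 to 9 in knockout when 1 library was left out. In brain, where 2 of the 3 same-numbered pairs deviated together and the third, which holds brain knockout 3, did not, 4 of 6 libraries correlated best with their own number, and the block called 0 genes. It changed no call of the 10 genes in any comparison. Brain depth allows no comparison of genotypes for the 6 genes at a few counts.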
